A study of Mus musculus with 21 samples.

Results

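Nr4a1, Nr4a2, Nr4a3, Egr1, Egr2, Egr3 and Nfatc1 encode transcription factors that T cells use when their antigen receptor is engaged. They were taken by symbol from the table of read counts, 7 of its 49510 genes. All 7 of 7 were among the 14996 genes that passed the filter on low counts. RNA was sequenced from T cells of mice 7 days after myocardial infarction (MI), the death of heart muscle that follows a blocked coronary artery. The study asked what sets regulatory T cells (Tregs) of the injured heart apart from Tregs elsewhere and from their conventional counterparts (Tconvs).

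There are 21 libraries in 7 groups of 3: heart Treg, heart Tconv, MLN Treg, NDLN Treg, spleen Treg, NDLN Tconv and spleen Tconv. MLN is the mediastinal lymph node, which drains the heart, and NDLN a non-draining lymph node. Every mouse was Foxp3-GFP, 8 weeks old and infarcted, so the groups differ by organ and cell type, and no uninjured animals are analysed here. Any step of cell preparation that differed between organs would go with organ here, and its part was not tested. Foxp3-GFP is a green fluorescent reporter of Foxp3, the factor that defines Tregs, by which Tregs were separated from Tconvs with magnetic beads and flow sorting. The labels do not say that the 3 libraries of a group came from separate animals, so each p-value measures the spread between libraries, which may be technical.

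NR4A proteins are orphan nuclear receptors whose genes are switched on within the first wave of transcription after receptor engagement. In mouse Tregs they help to keep Foxp3 expressed, and in conventional T cells they restrain effector functions. EGR proteins are zinc finger factors: Egr1 follows the MAP kinase branch of the signal, whereas Egr2 and Egr3 lie downstream of calcium and NFAT and are known as brakes on activation. Nfatc1 is an NFAT protein that enters the nucleus once the phosphatase calcineurin has been activated by calcium.

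The upstream sequences of the NR4A genes are shown because all of them carry the same short motif, with Egr2 beside them as a gene that did not pass the test in any comparison. The sequences are from RefSeq on build GRCm38.p6 and run 5′ to 3′ on the strand of the gene, up to the annotated start. Windows were found for 4 of the 7 genes (Nr4a1, Nr4a2, Nr4a3 and Egr2). Capitals mark TGACG or its reverse complement CGTCA, the core of the element bound by CREB and ATF factors, searched on both strands. The stretches are chr15:101266596-101266845 (plus strand) for Nr4a1, chr2:57124004-57124253 (minus strand) for Nr4a2, chr4:48045055-48045152 (plus strand) for Nr4a3 and chr10:67537619-67537868 (plus strand) for Egr2.
Nr4a1: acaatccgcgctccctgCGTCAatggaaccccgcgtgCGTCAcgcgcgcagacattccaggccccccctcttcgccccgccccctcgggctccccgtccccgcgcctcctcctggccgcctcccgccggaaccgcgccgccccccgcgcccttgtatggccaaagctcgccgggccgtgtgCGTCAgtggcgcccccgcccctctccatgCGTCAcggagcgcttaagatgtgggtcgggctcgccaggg
Nr4a2: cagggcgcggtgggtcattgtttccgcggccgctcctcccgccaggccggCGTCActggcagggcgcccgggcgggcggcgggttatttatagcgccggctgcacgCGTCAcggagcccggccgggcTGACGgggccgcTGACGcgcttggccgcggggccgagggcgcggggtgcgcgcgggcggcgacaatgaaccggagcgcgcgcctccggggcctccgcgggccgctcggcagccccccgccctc
Nr4a3: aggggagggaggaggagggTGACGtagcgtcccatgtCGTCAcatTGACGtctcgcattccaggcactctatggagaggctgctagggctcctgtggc
Egr2: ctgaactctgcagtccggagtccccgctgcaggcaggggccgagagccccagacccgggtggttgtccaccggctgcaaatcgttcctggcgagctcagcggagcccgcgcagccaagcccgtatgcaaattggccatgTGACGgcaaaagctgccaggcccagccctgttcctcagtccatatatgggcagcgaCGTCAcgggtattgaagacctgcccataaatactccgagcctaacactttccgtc

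In the 250 bases before the start, Nr4a1, Nr4a2 and Nr4a3 held 4 copies each. Of the Nr4a3 copies 3 lie in the 98 bases printed, which end where GENCODE M21 places the first exon. The Egr2 window shown is the first of those with the most copies among its 5 annotated starts, and it held 2. Of 32851 such windows of all genes 17.8% held at least 1 copy, 3.9% at least 2 and 0.137% at least 4. The CArG box bound by SRF was in 1.47% of all windows, in the Egr2 window shown and in no NR4A window. The EGR core GTGGGCG (7.02% of all windows) and the NR4A core AAGGTCA (4.08%) were in none of the windows shown. The NFAT core GGAAA, in 55.6% of all windows, stood in those of Nr4a2 and Egr2. A match of letters is a description of the window and not a measured binding site.

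The libraries held 14515387 to 28323649 counts each. Levels below are CPM, the usual depth-scaled counts, with library sizes adjusted by the TMM method, and means are given ± SD with n = 3. The spread between libraries was wide, with a biological coefficient of variation of 1.48 common to all genes. Summed over 6 T cell markers (not TMM-scaled), the libraries lay between 4130 and 8490 CPM, and Foxp3 averaged 167 ± 71.1 CPM in heart Tregs against 0.0843 ± 0.0691 in heart Tconvs. A division that runs across the groups was also present. It was read from 234 on-off genes, each silent (no more than 0.5 CPM) in some libraries and expressed (no less than 5 CPM) in the rest, of which 26 set apart the same 5: heart Treg replicate 1, heart Tconv replicates 1 and 2, and MLN Treg replicates 1 and 2. The next most frequent division had 3 genes. Signs of RNA makeup moved with the set: the share of mitochondrial rRNA was 0.0567 to 0.102% in those 5, against 0.954 to 12.3% in the remaining 16, and that of ribosomal protein genes 4.57 to 9.16% against 10.6 to 24%. Their part in the results was not tested beyond the fits by library set. The other 16 include every library of spleen and NDLN, so results on heart are also given within a set.

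T cells of the injured heart carried more Nr4a2 and Nr4a3 transcript and far less Egr3 than T cells of spleen and NDLN. In Nr4a1 and Egr1 every heart Tconv library lay above those of spleen and NDLN, while heart Treg libraries overlapped with them. With both heart groups set against the 4 spleen and NDLN groups, Nr4a1, Nr4a2, Nr4a3 and Egr1 were higher and Egr3 was lower in heart, whereas Egr2 and Nfatc1 did not pass the test. The 4 of 7 genes called higher compare with 8.42% of all genes tested, and the 1 of 7 called lower with 4.45% (12.9% in either direction). DESeq2, which called 24.5% of all genes, and limma-voom, which called 16.6%, called the same 5 genes in the same directions. With the library set as a factor in the fit, Nr4a1 and Nr4a3 were the 2 still called. The share of all genes called in that fit is not given here. The median log2 fold change was 2.38 over the 7 genes and 0.26 over all genes. In bulk libraries, fewer cells with a transcript and less transcript per cell cannot be told apart.

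**Figure D1:**
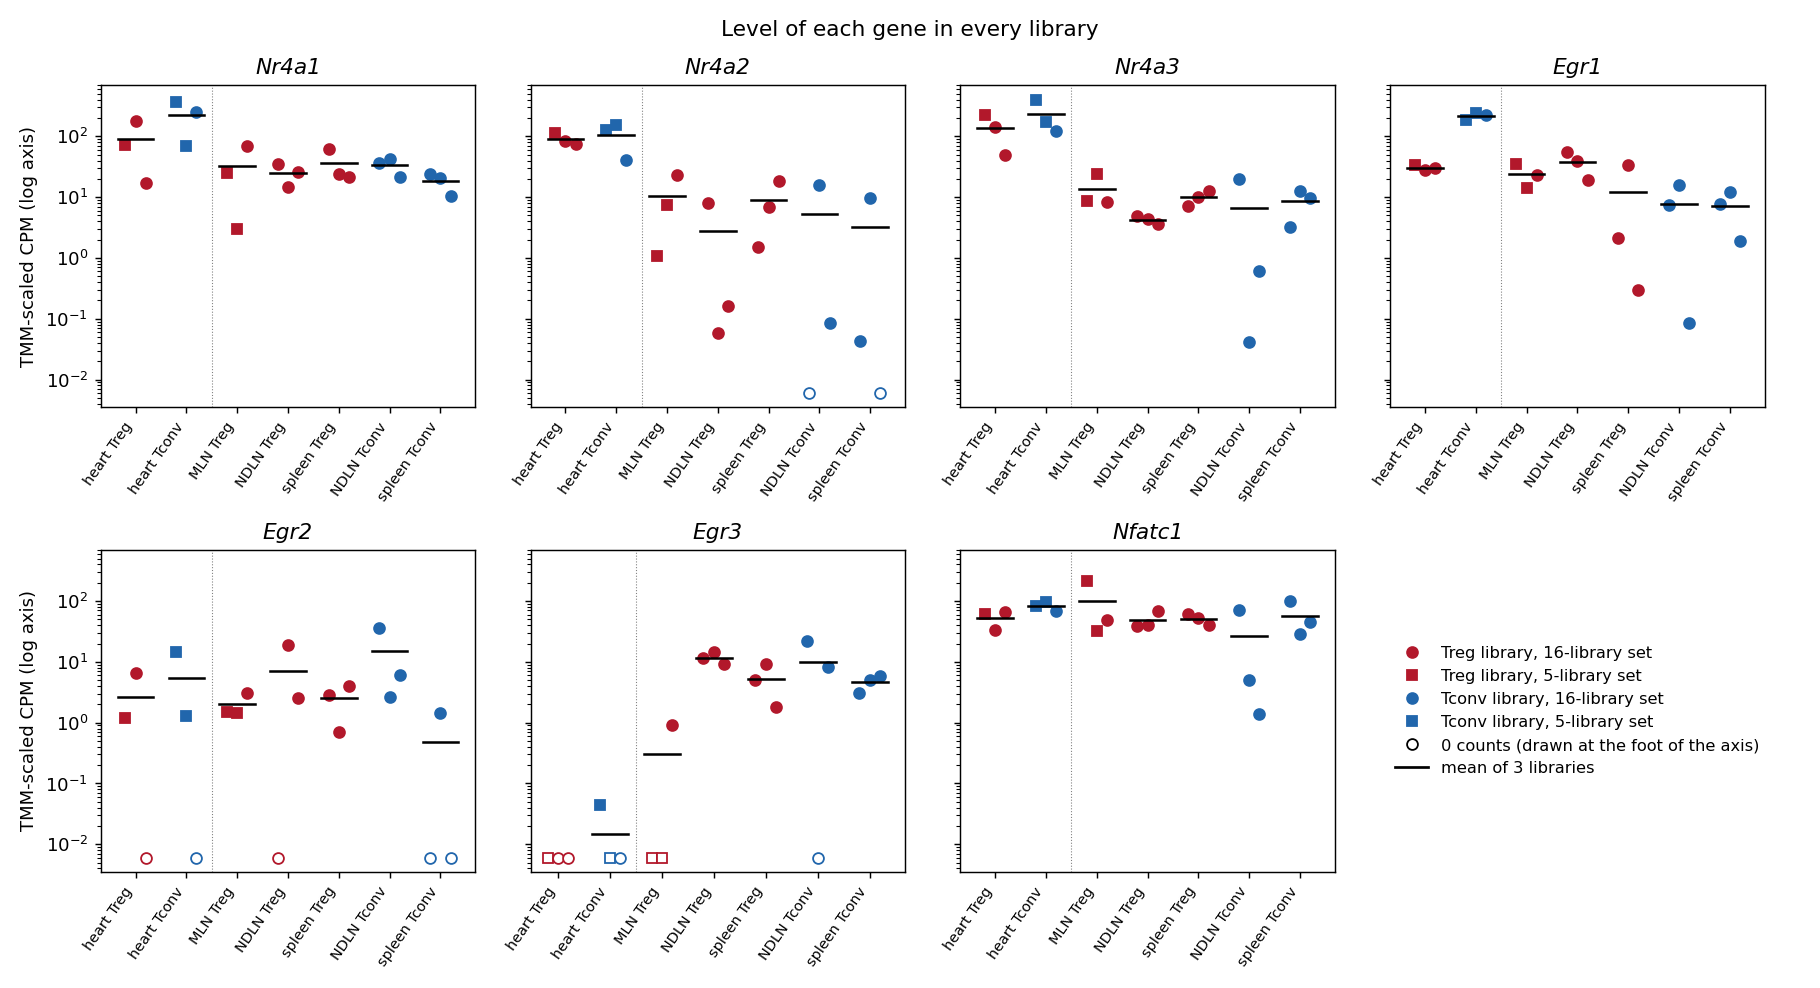
TMM-scaled CPM (log axis) of each gene in all 21 libraries, by group, with Tregs in red, Tconvs in blue and the mean of 3 libraries as a bar. Squares are the 5 libraries that stand apart and open symbols are libraries with 0 counts. All 6 heart libraries lie above all 15 others for Nr4a2 and Nr4a3, and Egr3 has 1 count over the 6 heart libraries.

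Nr4a1 (ENSMUSG00000023034, chr15:101254269-101274795, plus strand, GRCm38) encodes Nur77, whose expression is widely read as a gauge of antigen receptor signal. It stood at 71.5, 178 and 17.2 CPM in heart Tregs. Heart Tconvs had 360, 68.9 and 250 CPM. The other groups were at 24.7, 3.04 and 68.8 CPM in MLN Tregs, 35.5, 14.5 and 25.6 in NDLN Tregs, 61.3, 24.4 and 21.6 in spleen Tregs, 36.7, 43 and 21.6 in NDLN Tconvs and 24.1, 20.3 and 10.4 in spleen Tconvs. Heart Tconv libraries lay above every spleen and NDLN library, while heart Treg replicate 3 lay among them. Over the 6 heart libraries the range was 17.2 to 360 CPM with a median of 125, against 10.4 to 61.3 with a median of 24.2 over the 12 of spleen and NDLN. The log2 fold change of heart over these groups was 2.38 (SE 0.51, adjusted p = 0.0051), 5.19-fold, an average over both heart groups. Heart Tregs alone overlapped with Tregs of spleen, NDLN and MLN in Nr4a1. The adjusted p of edgeR was 0.55, 0.33 and 0.57 in that order.

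Nr4a2 (ENSMUSG00000026826, chr2:57106830-57124003, minus strand) encodes Nurr1, a relative of Nur77 that binds the same DNA element. Heart Tregs had 112, 84.5 and 73.9 CPM, and Tconvs of the heart 127, 152 and 40.8 CPM. Elsewhere the highest values of a group were 23.1 CPM in MLN Tregs, 18.1 in spleen Tregs, 15.7 in NDLN Tconvs, 9.56 in spleen Tconvs and 8 in NDLN Tregs. The gene was close to switched off in part of the lymphoid libraries: NDLN Treg replicates 2 and 3 had 0.058 and 0.16 CPM, and NDLN Tconv replicate 1 and spleen Tconv replicate 3 had 0 counts. All 15 libraries outside the heart lay under the lowest heart library. Heart exceeded spleen and NDLN by 4.44 on the log2 scale (SE 1.19, adjusted p = 0.019), 21.8-fold. That difference was 5.58 without NDLN Treg replicate 1, 6.14 without spleen Tconv replicate 2 and 6.17 without NDLN Tconv replicate 2. With the library set as a factor it no longer passed (adjusted p = 0.107).

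Nr4a3 (ENSMUSG00000028341, chr4:48045153-48086447, plus strand) encodes Nor1, the remaining NR4A receptor. It had 223, 144 and 48.6 CPM in heart Tregs; heart Tconvs had 395, 171 and 124 CPM. The remaining groups were at 8.53, 24.1 and 8.26 CPM in MLN Tregs, 4.95, 4.29 and 3.56 in NDLN Tregs, 7.24, 10.1 and 12.5 in spleen Tregs, 19.6, 0.0418 and 0.604 in NDLN Tconvs and 3.2, 12.8 and 9.85 in spleen Tconvs. No library outside the heart reached the lowest heart library. The SD of Nr4a3 was smallest beside its mean in NDLN Tregs (16.4%) and spleen Tregs (26.4%), and largest in NDLN Tconvs (165%). The log2 fold change of heart over spleen and NDLN was 4.66 (SE 0.68, adjusted p = 0.00023), 25.3-fold, and 5.78 without NDLN Tconv replicate 1. Nr4a2 and Nr4a3 were thus the 2 of 7 genes without overlap between heart and these organs, a pattern seen in 1.44% of all genes tested.

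Per kilobase of merged exon, the scale on which different genes can be set side by side, the NR4A genes stood close together in heart Tregs. Nr4a1 had a level of 25.3 ± 23.2 CPM per kilobase, Nr4a3 23.1 ± 14.6 and Nr4a2 22.2 ± 4.9. In heart Tconvs the levels were 64.5 ± 41.9 for Nr4a1, 38.4 ± 24.2 for Nr4a3 and 26.3 ± 14.4 for Nr4a2. In the lymphoid groups the gap between Nr4a1 and its relatives was wider: in NDLN Tregs Nr4a1 had 7.18 ± 3.01 CPM per kilobase, against 0.713 ± 0.117 for Nr4a3 and 0.675 ± 1.12 for Nr4a2. The differences among the NR4A genes within heart Tregs are smaller than their SDs.

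Egr1 (ENSMUSG00000038418, chr18:34859823-34864984, plus strand), an immediate early gene of the growth factor and MAP kinase response, was high in heart Tconvs and not in heart Tregs. Heart Tregs had 33.8, 28 and 29.9 CPM, against 183, 239 and 223 in heart Tconvs. The other Treg groups stood at 34.6, 14.3 and 23 CPM in MLN, 54.7, 38.8 and 18.9 in NDLN and 2.1, 33.6 and 0.292 in spleen. The other Tconv groups had 7.45, 16 and 0.0863 CPM in NDLN and 7.84, 12 and 1.9 in spleen. Heart Tconvs lay above all other 18 libraries, whereas heart Tregs lay within the range of the MLN, NDLN and spleen Tregs. The difference of heart from spleen and NDLN, 2.68 on the log2 scale (SE 0.71, adjusted p = 0.018, 6.41-fold), averages over these unlike heart groups. It was 3.51 without spleen Treg replicate 2, and did not pass with the library set as a factor (adjusted p = 0.0907).

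Egr2 (ENSMUSG00000037868, chr10:67535475-67542188, plus strand) was low and uneven in all groups. Heart Tregs had 1.19, 6.6 and 0 CPM, and heart Tconvs had 14.8, 1.27 and 0. In NDLN it was at 0, 18.6 and 2.52 CPM in Tregs and at 36.1, 2.63 and 6.13 in Tconvs, the group with the highest mean (15 ± 18.4). The other groups ranged from 0 to 3.97 CPM. Heart and lymphoid libraries overlapped over their whole range, and the difference from spleen and NDLN was 0.16 on the log2 scale (SE 1.49, adjusted p = 1). That fitted value averages the group means on the log scale, and the plain means run the other way, at 3.98 CPM in heart and 6.24 CPM in spleen and NDLN.

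Egr3 (ENSMUSG00000033730, chr14:70077203-70082614, plus strand), the EGR gene most closely tied to NFAT signals, was absent from nearly all heart counts. Over the 3 heart Treg libraries it had 0 counts, and over the 3 heart Tconv libraries 1 count. NDLN Tregs had 11.5, 14.6 and 9.15 CPM, spleen Tregs 4.97, 9.22 and 1.79, spleen Tconvs 3.07, 5.03 and 5.82, and NDLN Tconvs 22.1, 0 and 8.12. MLN Tregs resembled heart more than the other nodes, with 0 counts in replicates 1 and 2 and 0.907 CPM in replicate 3. Overlap with heart came from NDLN Tconv replicate 2 and those MLN Treg libraries, all at 0 counts.

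Summed over groups, Egr3 had 1 count in heart and 1921 counts in spleen and NDLN, a depth-scaled ratio of 1070 in favour of spleen and NDLN (95% interval 192 to 42400). Such intervals and limits cover counting error only. The fitted log2 fold change was -9.43 (SE 2.14, adjusted p = 0.0085); with so few counts its size depends on the constant added before the logarithm, so it serves the test and not as a size. The call was lost with the library set as a factor (adjusted p = 0.245). A count of 0 allows up to 3 counts over a group, which is 0.0403 CPM in heart Tregs. Against that limit Egr3 was at least 140-fold lower in heart Tregs than in spleen Tregs and at least 283-fold lower than in NDLN Tregs. No limit is given against MLN Tregs, since all of their 20 counts came from replicate 3.

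Nfatc1 (ENSMUSG00000033016, chr18:80606205-80713071, minus strand) was present throughout and did not pass the test for heart against spleen and NDLN. Heart Tregs had 60.6, 33.2 and 66.6 CPM, and heart Tconvs had 84.3, 96.2 and 68.7. NDLN Tregs had 38.9, 40.6 and 67.8 CPM, spleen Tregs 60.6, 51.8 and 40.1, and spleen Tconvs 98.8, 28.2 and 44.9. The extremes lay elsewhere: MLN Treg replicate 1 had 216 CPM beside 32.8 and 48.5 in its group, and NDLN Tconvs had 72.1, 5.09 and 1.38. The difference of heart from spleen and NDLN was 0.6 on the log2 scale (SE 0.56, adjusted p = 0.57). Without NDLN Tconv replicate 1 it passed the test, which brought the genes called to 6. A gene annotated on the opposite strand lies within Nfatc1 and shares 0 exon bases with it.

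Ordered by mean level, heart Tconvs led for Nr4a1, Nr4a2, Nr4a3 and Egr1, and heart Tregs came next for the NR4A genes. The heart groups were neighbours whose libraries overlapped for each NR4A gene (88.8 ± 81.5 CPM in Tregs and 226 ± 147 in Tconvs for Nr4a1, 90.2 ± 19.9 in Tregs and 107 ± 58.4 in Tconvs for Nr4a2, 139 ± 87.2 in Tregs and 230 ± 145 in Tconvs for Nr4a3). For Egr1 the second group was NDLN Tregs (37.5 ± 18 CPM), with libraries that overlap heart Tregs (30.6 ± 2.96) and MLN Tregs (24 ± 10.2). Egr3 ran in another order, with NDLN Tregs (11.8 ± 2.75 CPM) and NDLN Tconvs (10.1 ± 11.2) first, then spleen Tregs (5.33 ± 3.73) and spleen Tconvs (4.64 ± 1.41). Nfatc1 led in MLN Tregs (99.1 ± 101 CPM) and was lowest in NDLN Tconvs (26.2 ± 39.8), but these groups overlapped.

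Between single groups of 3 libraries few differences passed the test. Against spleen Tregs, heart Tregs had more Nr4a2 and Nr4a3 and less Egr3 in every library. The 2 of 7 genes higher without overlap compare with 6.66% of all genes, and the 1 lower with 8.83%. Nr4a3 was 13.9-fold higher, a log2 fold change of 3.8 (SE 1.23, adjusted p = 0.36). The fitted value of Egr3 was -9.89 (SE 3.08, adjusted p = 0.33). edgeR's quasi-likelihood test called 0 of 7 genes and 0.147% of all genes. At an unadjusted p under 0.05 there were 2 of 7 (11.7% of all genes), and DESeq2 called 2 (9.02%) and limma-voom 1 (1.89%).

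Against NDLN Tregs the same pattern was wider. Heart Tregs had 32.4-fold more Nr4a3 (log2 5.02, SE 1.3, adjusted p = 0.091) and 32.9-fold more Nr4a2 (log2 5.04, SE 2.3, adjusted p = 0.32). Both genes were above NDLN Tregs in all heart Treg libraries, as were 8.5% of all genes. Nr4a2 had 168, 1 and 4 counts in the NDLN Treg libraries, so its fold rests largely on replicate 1. Its log2 fold change lay between 4.47 and 9.59 over 15 repeat settings. Egr3 was below without overlap, as were 11.1% of all genes, with a fitted -11.03 (SE 3.23, adjusted p = 0.14). edgeR called 0 of 7 and 0.533% of all genes. An unadjusted p under 0.05 was reached by 3 of 7 (15.5% of all genes), while DESeq2 called 3 (12.2%) and limma-voom 1 (2.72%).

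Against Tregs of the node that drains the heart, Nr4a3 was 10.2-fold higher in heart Tregs (log2 3.34, SE 1.2, adjusted p = 0.5). Nr4a2 had 112, 84.5 and 73.9 CPM in heart Tregs against 1.07, 7.39 and 23.1 in MLN Tregs, again without overlap. Of all genes 4.7% were higher without overlap. Egr3, with 0 counts in heart Tregs and 20 in MLN Tregs, had a fitted log2 fold change of -5.78 (SE 2.5, adjusted p = 0.5). edgeR called 0 of 7 and 0.0667% of all genes. The unadjusted p was under 0.05 for 2 of 7 (9.58% of all genes), with 1 called by DESeq2 (7.42%) and 0 by limma-voom (1.41%).

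Among Tconvs the difference between heart and spleen took in Nr4a1 and Egr1 as well. Nr4a1 was 12.4-fold higher in heart (log2 3.63, SE 0.96, adjusted p = 0.086), Nr4a2 33.2-fold (log2 5.05, SE 2.3, adjusted p = 0.38), Nr4a3 26.6-fold (log2 4.74, SE 1.29, adjusted p = 0.092) and Egr1 29.7-fold (log2 4.89, SE 1.41, adjusted p = 0.11). All 4 were higher without overlap, as were 14.3% of all genes, and Egr3 was lower, as were 9.97%. Nr4a2 had 1, 243 and 0 counts in the spleen Tconv libraries, so its fold rests largely on replicate 2. Its log2 fold change lay between 3.68 and 11.83 over 15 repeat settings. Egr3, with 1 count in heart and 300 in spleen Tconvs, had a ratio of 316 in favour of spleen (95% interval 56.3 to 12500, adjusted p = 0.28). edgeR called 0 of 7 and 0.473% of all genes. Without adjustment 5 of 7 had a p under 0.05 (12.5% of all genes), and DESeq2 called 5 (9.8%) and limma-voom 3 (1.48%).

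Heart against NDLN Tconvs was the only comparison of single groups in which edgeR called a gene of the 7, and 2.88% of all genes were called there. Nr4a3 was 34-fold higher in heart Tconvs (log2 5.09, SE 1.31, adjusted p = 0.039), with 395, 171 and 124 CPM against 19.6, 0.0418 and 0.604. The call was lost without heart Tconv replicate 1 (adjusted p = 0.157), heart Tconv replicate 2 (0.0813) or NDLN Tconv replicate 3 (0.109), and the log2 fold change was 9.57 without NDLN Tconv replicate 1. It was also lost with the library set as a factor (log2 4.24, adjusted p = 0.166), in the 16 libraries alone (4.17, adjusted p = 0.606) and with only these groups in the fit (5.09, adjusted p = 0.214). Nr4a1 was 6.7-fold higher (log2 2.74, SE 0.92, adjusted p = 0.12) and Egr1 27.4-fold (log2 4.77, SE 1.4, adjusted p = 0.07). Together with Nr4a2 these made 4 of 7 genes higher without overlap, beside 16.6% of all genes. Egr3 had 1 count in heart and 471 counts in NDLN Tconvs, a ratio of 622 in favour of NDLN (95% interval 111 to 24600, adjusted p = 0.14). Before adjustment 4 of 7 were under 0.05 (18.6% of all genes), while DESeq2 called 4 (18%) and limma-voom 3 (6.84%).

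**Figure D2:**
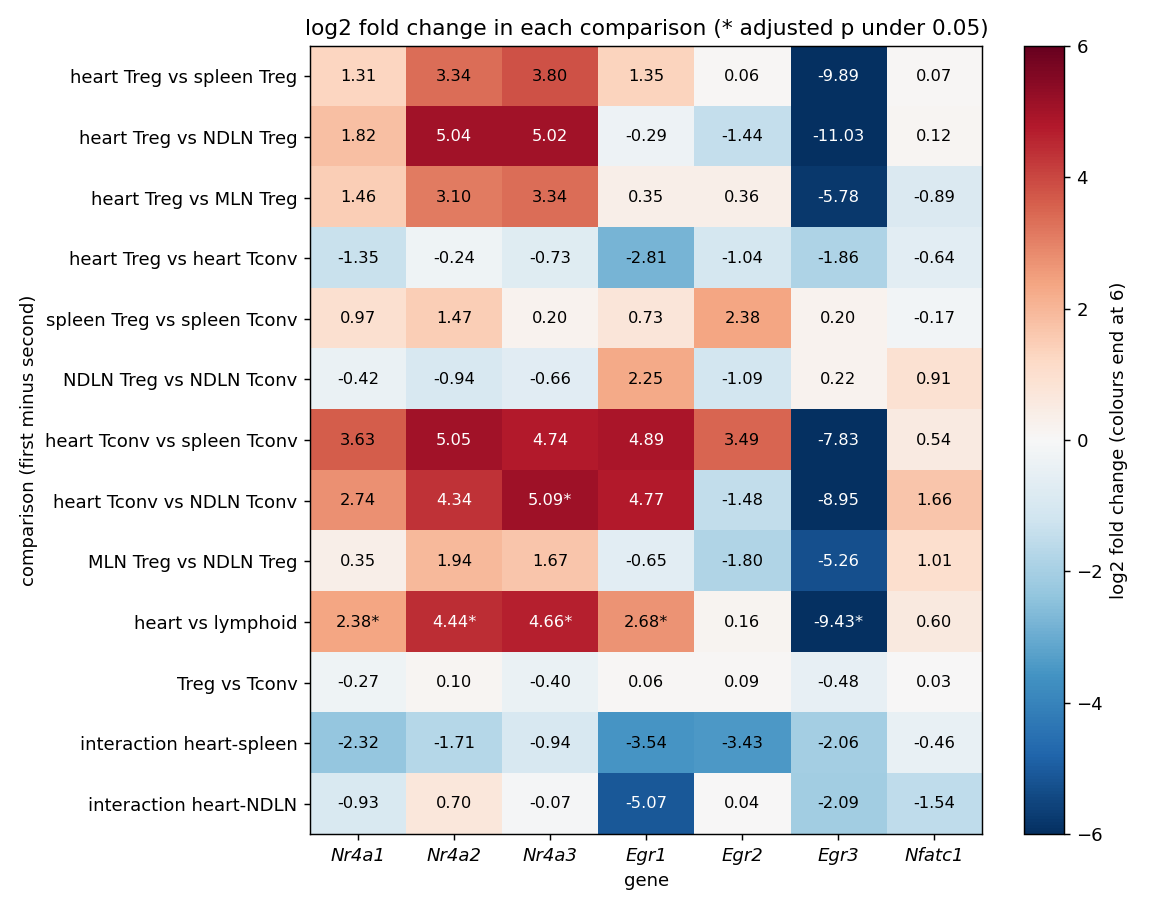
Fitted log2 fold change of each gene (columns) in each comparison (named group first minus second), with an asterisk where the adjusted p is under 0.05. Red is higher and blue lower in the first group, and colours end at 6. The asterisks fall in heart against spleen and NDLN (lymphoid) for 5 genes and in heart against NDLN Tconvs for Nr4a3; the size of the Egr3 values is not a measure, since heart had 0 or 1 count.

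Within the heart, Tregs had less Egr1 than Tconvs. The difference was 7.04-fold (log2 -2.81, SE 1.28, adjusted p = 0.6), and the libraries of the groups did not overlap. Nfatc1 was also lower without overlap, at 60.6, 33.2 and 66.6 CPM in heart Tregs against 84.3, 96.2 and 68.7 in heart Tconvs, and 2 of 7 compares with 8.17% of all genes. edgeR called 0 of 7 and 0.0667% of all genes. Egr1 was the 1 of 7 with an unadjusted p under 0.05 (7.81% of all genes) and the 1 called by limma-voom (1.19%, adjusted p = 0.021), and DESeq2 called 0 (6.54%). In NDLN the sign of the Egr1 difference was the opposite: NDLN Tregs had 54.7, 38.8 and 18.9 CPM against 7.45, 16 and 0.0863 in NDLN Tconvs (log2 2.25, SE 1.25, adjusted p = 0.45). No libraries overlapped there either, as for 7.99% of all genes that were higher in NDLN Tregs.

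The test of whether the Treg to Tconv difference of Egr1 departs between heart and NDLN gave -5.07 on the log2 scale (SE 1.79, adjusted p = 0.39). edgeR called 0 of 7 and 0.0133% of all genes in it. Egr1 was the 1 of 7 with an unadjusted p under 0.05 (9.94% of all genes) and the 1 called by DESeq2 (9.17%, adjusted p = 0.033), and limma-voom called 0 (0.493%). Between heart and spleen the same test gave -3.54 for Egr1 (SE 1.74, adjusted p = 0.67). There edgeR called 0 of 7 (0.0133% of all genes), 0 had an unadjusted p under 0.05 (7.5%), and DESeq2 (5.63%) and limma-voom (0.347%) called 0.

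The other comparisons held no call. In spleen, the smallest p was that of Nr4a1, with 61.3, 24.4 and 21.6 CPM in Tregs against 24.1, 20.3 and 10.4 in Tconvs (log2 0.97, SE 0.87, adjusted p = 0.99). In Tregs of the draining against the non-draining node it was that of Egr3, with 0, 0 and 0.907 CPM in MLN against 11.5, 14.6 and 9.15 in NDLN (log2 -5.26, SE 2.61, adjusted p = 0.5). There Egr3 was lower and Nr4a3 higher without overlap, beside 7.2% and 9.4% of all genes. Averaged over heart, spleen and NDLN, Tregs and Tconvs differed most by p in Egr3, at -0.48 (SE 0.57, adjusted p = 0.96). The sign of that average turned in 3 of 27 repeat settings. By organ the fitted Egr3 value was 0.2 in spleen, 0.22 in NDLN and -1.86 in heart, where Tregs had 0 counts and Tconvs 1. Plain means run the other way from the average, at 5.7 CPM in Tregs and 4.91 CPM in Tconvs. In spleen, between the nodes, in the average over organs and in NDLN Tregs against NDLN Tconvs, edgeR, DESeq2 and limma-voom each called 0 of 7. There 0 had an unadjusted p under 0.05. Of all genes, edgeR called 0.06% in spleen, 0.3% in NDLN, 0.00667% between the nodes and 1.81% over the organs. DESeq2 called 5.99%, 11%, 6.28% and 12.3% in the same order, and limma-voom 0.874%, 1.61%, 0.273% and 3.34%. An unadjusted p under 0.05 was found for 7.33%, 11.6%, 9.66% and 14.2%. The comparisons share libraries, so their results are not independent.

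The 5 libraries that stand apart include 3 of the 6 heart libraries, and they bear on part of the result. With the library set as a further factor in the fit, heart against spleen and NDLN kept Nr4a1 (log2 2.93, SE 0.61, adjusted p = 0.0118) and Nr4a3 (log2 3.99, SE 0.74, adjusted p = 0.006). Nr4a2 was then at 4.63 (SE 1.52, adjusted p = 0.107), Egr1 at 2.64 (SE 0.83, adjusted p = 0.0907) and Egr3 at -7.55 (SE 3.25, adjusted p = 0.245). In the 16 libraries alone, which leave 2 heart Tregs and 1 heart Tconv, Nr4a1 was called at 2.51 (SE 0.55, adjusted p = 0.0324) and Nr4a3 lay just above the threshold at 3.95 (SE 0.94, adjusted p = 0.05). In that fit the lone heart Tconv library is taken to vary like the other groups. Nr4a2 was at 3.66 (SE 1.58, adjusted p = 0.354), Egr1 at 2.67 (SE 1.01, adjusted p = 0.248) and Egr3 at -10.35 (SE 3.41, adjusted p = 0.178).

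The levels within each set keep the NR4A pattern visible. Among the 16, heart libraries had 40.8 to 84.5 CPM of Nr4a2 against 0 to 23.1 in the 13 others, and 48.6 to 144 CPM of Nr4a3 against 0.0418 to 19.6. Among the 5, the 3 heart libraries had 112 to 152 CPM of Nr4a2 against 1.07 to 7.39 in the 2 MLN Treg libraries, and 171 to 395 CPM of Nr4a3 against 8.53 to 24.1. Heart and other libraries did not overlap for either gene in either set. Nr4a1 did not overlap in the 5 (68.9 to 360 CPM against 3.04 to 24.7) but did in the 16 (17.2 to 250 against 10.4 to 68.8). For Egr3 the 2 MLN Treg libraries of the smaller set had 0 counts, as its heart Tregs did, so within that set the organs cannot be set apart; in the 16, heart had 0 counts against 0 to 22.1 CPM.

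**Figure D3:**
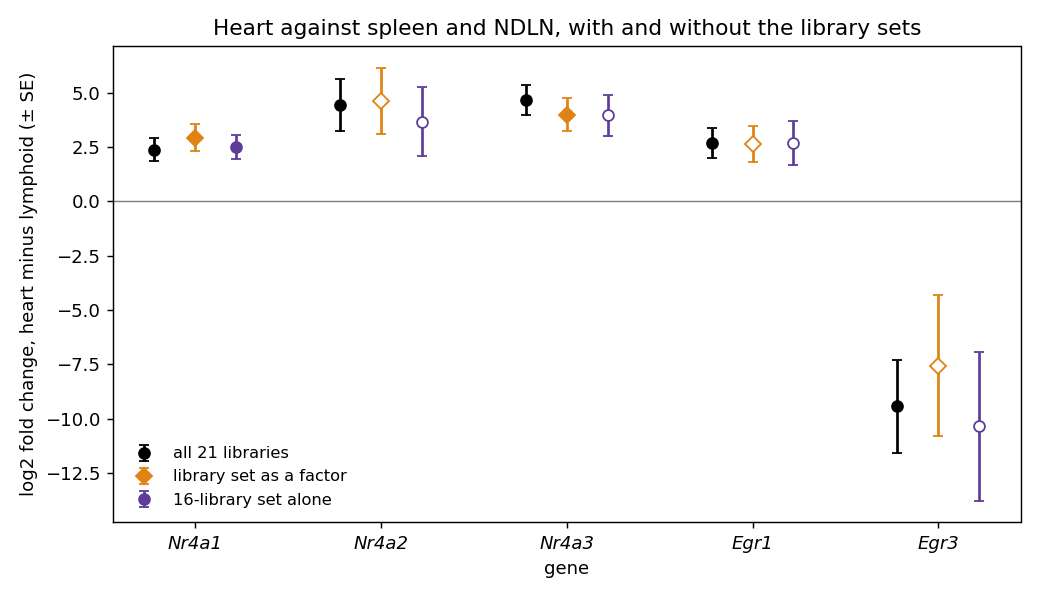
Log2 fold change (± SE) of heart against spleen and NDLN for the 5 genes called, in all 21 libraries (black), with the library set as a factor (orange diamonds) and in the 16-library set alone (purple). Filled symbols have an adjusted p under 0.05. Nr4a1 stays filled in all 3 settings and Nr4a3 in 2, and each gene keeps its sign.

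Transcripts that serve as markers of fibroblasts and other cell types were present in the heart libraries. Fibroblast markers (8 genes, 7 detected in heart Tregs with Pdgfra at 0, and 8 in heart Tconvs) summed to 145, 495 and 392 CPM in heart Tregs, and among Tconvs of the heart to 1.44, 185 and 125, against at most 5.18 CPM in any other library. Macrophage and monocyte markers (10 genes) summed to 50.8, 0.0746 and 18.5 CPM in heart Tregs. Csf1r, C1qa, C1qb, C1qc, Adgre1 and Fcgr1 were at 0 there. Other Tregs had similar or higher sums, 16 to 63.5 CPM in NDLN, 21.9 to 43.1 in spleen and 15 to 27.3 in MLN. Heart Tconvs had 175, 11.3 and 0.447 CPM, with Csf1r, Itgam and Fcgr1 at 0, against 0.0742 to 31.5 in spleen Tconvs and 0 to 18 in NDLN Tconvs. CD8 and NK cell markers (8 genes) summed to 1460, 3580 and 1520 CPM in heart Tregs (Cd8a and Prf1 at 0) and 2050, 1590 and 1860 in heart Tconvs (Ncr1 at 0), against 76.1 to 2100 CPM in the other libraries. Nkg7 and Gzmb, which activated T cells can also express, were the most abundant of that list in heart. Red cell markers (5 genes) summed to 0.864 to 30.6 CPM over the heart libraries, against 1220 to 23800 in spleen Tregs and 342 to 29900 in MLN Tregs. Dendritic cell markers (6 genes) summed to 0 to 52.9 CPM in heart Tregs (Itgax and Flt3 at 0). The other Tregs had 203 to 692 in spleen, 107 to 193 in NDLN and 12.1 to 16.4 in MLN. Among Tconvs the sums were 42.6 to 468 CPM in heart (Itgax at 0), against 19 to 134 in spleen and 0 to 4.24 in NDLN. B cell markers (6 genes) were, like Egr3, lower in heart and MLN Tregs than in NDLN and spleen Tregs. Their sums were 0.0746 to 23.4 CPM in heart and 31.8 to 99.2 in MLN, with Ms4a1, Pax5 and Ebf1 at 0 in both. NDLN had 243 to 282 (Pax5 at 0) and spleen 241 to 484. Spleen Tregs had a higher mean sum than NDLN Tregs (346 against 263 CPM) but a lower Egr3 mean (5.33 against 11.8). Among Tconvs the B cell sums were 0 to 50.5 CPM in heart, against 0.0509 to 2.14 in NDLN and 0.0371 to 21.9 in spleen. Egr3 averaged 10.1 CPM in NDLN Tconvs and 4.64 in spleen Tconvs. Which cells these transcripts came from was not tested, nor was the part of other cells in the NR4A, Egr1 and Egr3 levels.

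The genes around the 7 were read from 5 lists, for which heart was again set against spleen and NDLN. The lists were drawn up with results of these data known and share genes, so their counts describe and do not support, and differences between lists were not tested. Of all genes 8.42% were called higher and 4.45% lower in this comparison. Among immediate early genes, which are induced in the same first wave, 19 of 26 were called higher and 0 lower, with a median log2 fold change of 2.1 beside 0.26 over all genes. They were Junb, Fosb, Atf3, Ier2, Ier3, Btg2, Dusp1, Dusp2, Dusp5, Zfp36, Klf6, Ppp1r15a, Gadd45b, Sgk1, Rgs1, Cd69, Nfkbia, Tnfaip3 and Csrnp1. Junb, an AP-1 subunit, averaged 886 ± 360 CPM in Tregs and 1420 ± 593 in Tconvs of the heart, against 62.4 ± 31.5 in NDLN Tregs and 191 ± 60.9 in spleen Tconvs (log2 3.25, SE 0.34, adjusted p = 7.3e-06). Nfkbia, the inhibitor that NF-kB induces against itself, had 2400 ± 388 and 2690 ± 883 CPM in heart Tregs and Tconvs, against 569 ± 93.6 in spleen Tconvs (log2 1.96, SE 0.24, adjusted p = 2.8e-05).

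Not every gene of that wave passed the test. Jun had a log2 fold change of -0.28 (SE 0.49, adjusted p = 0.84) and Myc of -0.72 (SE 0.74, adjusted p = 0.62). Srf, whose product drives Egr1, was above the list median of 2.1, at 2.22, but with a wide error (SE 1.56, adjusted p = 0.4). Fos was at 1.39 (SE 0.52, adjusted p = 0.084), with 236 ± 149 CPM in Tregs and 355 ± 179 in Tconvs of the heart. MLN Tregs, which that comparison leaves out, had more, at 545 ± 103 CPM.

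Genes that report T cell receptor signal and early activation were called higher in 10 of 20 cases and lower in 0, beside 8.42% and 4.45% of all genes, with a median of 1.74. Bhlhe40, a transcriptional regulator of cytokine genes, averaged 461 ± 425 CPM in Tregs and 1040 ± 230 in Tconvs of the heart, against 9.71 ± 15.6 in NDLN Tregs and 8.18 ± 9.65 in NDLN Tconvs (log2 5.43, SE 0.82, adjusted p = 0.00048). The others were Nfkbid, Rel, Nfkb1, Tnfrsf4, Tnf, Ccl3, Xcl1, Spry2 and Cd69. Il2, a classical NFAT target, averaged 0.171 ± 0.0735 CPM in Tregs and 9.83 ± 4.13 in Tconvs of the heart, against 33.8 ± 20 in spleen Tconvs, and did not pass (log2 -1.2, SE 1.17, adjusted p = 0.59).

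Among genes linked to NR4A factors in T cells, 5 of 18 were called higher, beside 8.42% of all genes, and 1 lower, a share near the 4.45% of all genes; the median was 1.75. Kdm6b, a histone demethylase, averaged 126 ± 65.9 CPM in Tregs and 171 ± 131 in Tconvs of the heart (log2 2.47, SE 0.39, adjusted p = 0.00046). NDLN Tconvs had 12.4 ± 5.82 CPM, and MLN Tregs, which that comparison leaves out, 13.3 ± 7.22. Among Tregs the fitted fold was 4.02 over spleen and 4.98 over NDLN. Among Tconvs it was 3.44 over spleen and 13.8 over NDLN. Ctla4, Tnfrsf9 and Ikzf4 were also called. Foxp3 was called too, but its fitted value averages Tregs with Tconvs that hold 6 counts in heart, 2 in spleen and 0 in NDLN. Among Tregs it averaged 167 ± 71.1 CPM in heart, against 88.9 ± 18.7 in spleen and 73.2 ± 32.5 in NDLN, and edgeR called it in no comparison of heart Tregs with Tregs of another organ. The one that fell was Ikzf2, which encodes the Treg factor Helios (log2 -0.92, SE 0.29, adjusted p = 0.038). Tox, an exhaustion-linked factor placed downstream of NFAT and NR4A, had a log2 fold change of -0.36 (SE 0.33, adjusted p = 0.54).

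Of the list of EGR partners and reported Egr2 and Egr3 targets, 5 of 15 genes tested were called higher and 0 lower, beside 8.42% and 4.45% of all genes, with a median of 0.82. Cblb, a ubiquitin ligase that dampens receptor signals, averaged 114 ± 24.9 CPM in Tregs and 220 ± 112 in Tconvs of the heart, against 24.1 ± 13.9 in spleen Tregs and 38.3 ± 33.4 in NDLN Tconvs (log2 2.23, SE 0.62, adjusted p = 0.024). Fasl, the death ligand, had 13.2, 10.8 and 58.2 CPM in Tregs and 318, 321 and 295 in Tconvs of the heart, against at most 26.9 CPM in the lymphoid libraries. Ndrg1, Nt5e and Tbx21 were called too. In the same comparison Egr3 was lower and Egr2 did not pass, and a link of either to these genes was not tested. The corepressors Nab1 (log2 0.7, SE 0.45, adjusted p = 0.35) and Nab2 (0.82, SE 1.41, adjusted p = 0.83) did not pass, and Egr4 had 1 count over all heart Tconv libraries and 0 counts in the other groups.

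In the NFAT and calcineurin list 1 of 18 genes was called higher and 0 lower, no more than the 8.42% and 4.45% of all genes, with a median of 0.55. That gene was Orai1, the pore of the calcium channel that feeds calcineurin, with 69.6 ± 28 CPM in Tregs and 127 ± 115 in Tconvs of the heart, against 18 ± 12.8 in spleen Tregs and 10.4 ± 5.23 in spleen Tconvs (log2 2.76, SE 0.71, adjusted p = 0.016). Nfatc2 (log2 2.16, SE 0.85, adjusted p = 0.098) and Nfatc3 (1.08, SE 0.46, adjusted p = 0.12), the other NFAT genes of T cells, did not pass. Rcan1, a calcineurin inhibitor that NFAT induces, had 0 counts in heart Tregs and 22 counts over the heart Tconv libraries, and was detected mainly in NDLN Tregs (16.2, 0.638 and 9.35 CPM).

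**Figure D4:**
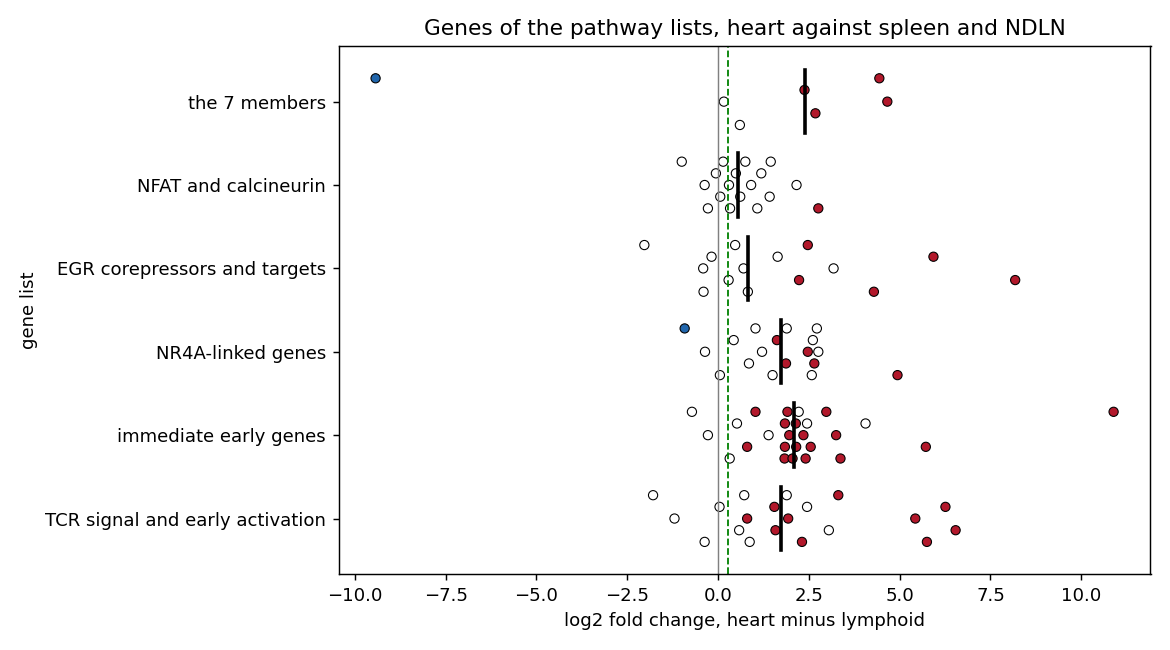
Fitted log2 fold change of heart against spleen and NDLN for the 7 genes and the genes of 5 lists (1 point per gene, red called higher, blue called lower, open not called), with list medians as black bars and the median of all genes, 0.26, as a dashed line. The immediate early list has the highest median of the 5 lists (2.1) and the NFAT and calcineurin list the lowest (0.55).

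Averaged over heart, spleen and NDLN, 1.81% of all genes were called between Tregs and Tconvs by edgeR, and 14.2% had an unadjusted p under 0.05. The immediate early list had 0 of 26 called in either direction by edgeR, with 0 higher and 6 lower at an unadjusted p under 0.05, 2 called lower by DESeq2 and 0 by limma-voom. The NR4A-linked list had 7 of 18 called higher in Tregs and 0 lower, among them Foxp3, Ikzf2 and Ctla4, which also mark Tregs. The receptor signal list had 3 higher (Tnfrsf18, Tnfrsf4 and Icos) and 3 lower (Cd40lg, Il21 and Il2).

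The genes most like each of the 7 across the 21 libraries were ranked by Pearson correlation of log2 CPM among 4766 candidates. The points share group structure and library sets, so the values describe likeness only. Nr4a3 was most like Rnf125, a ubiquitin ligase (r = 0.914), Ube2j1 (0.889) and Slc3a2, a subunit of amino acid transporters (0.874). Nr4a2 was most like Mir22hg (0.868), Gem, a small GTPase (0.865), and Traf1, an adaptor of TNF receptors (0.812). Egr3 was most like BC003965 (0.891), Ssb (0.858) and Pam16 (0.853), and Nfatc1 most like Frmd4b (0.872), Cdc16 (0.864) and Nosip (0.856). Likeness was weaker for Egr1, led by Ywhaq (0.798), Tuba1a (0.795) and Cyth2 (0.787), for Nr4a1, led by Clk1 (0.752), Suco (0.748) and Cd164 (0.747), and for Egr2, led by Naa15 (0.717), Luc7l3 (0.686) and Pafah1b1 (0.681).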

How the data were processed

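The deposited values are counts of reads per gene, whole numbers that the authors did not normalize, in a table of 49510 genes and 21 columns, each matched by name to 1 library; 0 columns were left unused. HTSeq 0.6.0, HISAT2 and CASAVA 1.8.2 are named in the submitters' processing notes, with mm10 as the build; which annotation and which strand setting were used is not given in the sources used here. Per the labels' protocols, libraries were made with a SMARTer kit for very low RNA input, so few cells may stand behind a library. Library totals were 14515387 to 28323649 counts, and each pair of replicates differed by more than sampling noise.

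In R 4.3.3, genes were kept with edgeR's filterByExpr (minimum count 10, total 15; 14996 genes) and scaled with TMM factors (0.798 to 1.35). All 21 libraries entered 1 edgeR 4.0.16 quasi-likelihood fit with robust estimation and a coefficient per group, and genes were called at a Benjamini-Hochberg adjusted p under 0.05 over all genes tested. Each SE is an approximation, the absolute log2 fold change divided by the square root of the F statistic of its test. The comparison of heart with spleen and NDLN sets the mean of the heart groups against the mean of the 4 spleen and NDLN groups, leaving out MLN, which has no Tconvs. The procedure was also run on simulated data with planted changes, and the outcome is not given here. DESeq2 1.42.0, limma-voom (limma 3.58.1), other scalings and filters, a replicate block, the library set as a factor and leaving out each library were alternatives. Exon lengths and positions are from GENCODE M21 (GRCm38, which mm10 stands for). Correlations used log2 CPM with a prior count of 2 and genes with a mean of at least 20 CPM.

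Fold changes are printed for the genes with an unadjusted p under 0.05 in a comparison and for the gene with its smallest p; from lists, for called genes and those with the smallest p, and others named were chosen after their values were seen. The 7 genes and all lists were chosen with earlier results of these data known. Library sets were defined from genes that are off in at least 4 libraries and on in the rest.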

Additional observations from a re-analysis of the deposited data

Results flagged for a closer look

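The Egr1 difference between Tregs and Tconvs pointed in opposite directions in heart and in the non-draining node, with no library crossing over in either organ. Heart Tregs had 33.8, 28 and 29.9 CPM against 183, 239 and 223 in heart Tconvs, while NDLN Tregs had 54.7, 38.8 and 18.9 CPM against 7.45, 16 and 0.0863 in NDLN Tconvs. The test of the difference itself gave -5.07 on the log2 scale (SE 1.79, adjusted p = 0.39 by edgeR, 0.033 by DESeq2 and 0.088 by limma-voom). Over 21 repeat settings it kept its sign, between -6.36 and -4.49. Heart Tconv replicates 1 and 2 and heart Treg replicate 1 belong to the 5 libraries that stand apart, and the part of that in the difference was not tested beyond those settings.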

How the results depend on the processing

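The replicate numbers were not taken to pair the libraries, a choice that the correlations do not settle. Over 63 pairs of libraries with the same number in different groups, deviations from the group mean correlated with r of -0.061 to 0.184. The mean was 0.011, and 3 pairs were over 0.1. The mean for different numbers, -0.005, is no separate reference, since deviations within a group sum to 0. Of 21 libraries 15 correlated best with their own number. With a replicate block, heart against spleen and NDLN kept its 5 calls, heart against NDLN Tconvs had 2 calls in place of 1, and no other count moved. DESeq2 called more of the 7 genes in 6 comparisons: 2 for heart against spleen Tregs, 3 against NDLN Tregs, 1 against MLN Tregs, 5 for heart against spleen Tconvs, 4 against NDLN Tconvs and 1 in the Treg to Tconv difference between heart and NDLN. The limma-voom counts that moved were 1 for heart against spleen Tregs, 1 against NDLN Tregs, 1 for heart Tregs against heart Tconvs, 3 for heart against spleen Tconvs and 3 against NDLN Tconvs. With no filter on low counts the counts were 1, 2, 4 and 3 for heart against spleen Tregs, NDLN Tregs, spleen Tconvs and NDLN Tconvs. Heart against NDLN Tconvs had 0 calls with the library set as a factor, in the 16 libraries alone or with only the groups compared, and 0 to 2 with a library left out. Heart against spleen and NDLN had 2 calls with the library set as a factor and 1 in the 16 libraries alone, and 5 to 6 with a library left out; the 5 calls remained without any of the 18 libraries in turn. The Egr3 difference between Tregs and Tconvs over the organs turned to 0.8 with limma-voom, 0.14 in the 16 libraries alone and 0.13 without heart Tconv replicate 1; with a library left out it lay between -0.69 and 0.13. The cause of these changes was not tested. Shares of all genes called are not given here for the refits with edgeR. A changed count there therefore cannot be told from a general change in calls. Of 233 repeat counts 208 equalled the count reported or lay within 1.5 times of it. Most comparisons had 0 calls in the main fit, and repeats with 0 calls there are among the 208. That share is therefore no measure of the stability of the calls. RLE scaling moved no count, and shifted the median of all genes by over 0.1 (log2) in 2 comparisons: to 0.28 from 0.15 for MLN against NDLN Tregs, and to -0.25 from -0.37 in the difference between heart and NDLN. The 5 libraries alone, a setting chosen after the data were seen, hold 1 heart Treg library, so their 0 calls for heart Tregs against MLN Tregs and against heart Tconvs say nothing about stability. Egr3 for heart against MLN Tregs gave no value without MLN Treg replicate 3, since 0 counts were left on either side. At these depths a level under 0.0403 CPM in heart Tregs could not be told from 0.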
